A study of Mus musculus with 9 samples.

Results

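Cytosolic ribosomal protein genes were described here across 9 RNA sequencing libraries of mouse cardiac fibroblasts. A gene was a member when its symbol in the deposited table was Rpl or Rps followed by p0, p1 or p2, by a, or by a number with an optional letter and further digits, which leaves out rows named as pseudogenes and the Rps6k kinases. The rule found 89 of the 56953 genes in the table, 53 of the large and 36 of the small subunit. Of these, 77 were standard ribosomal proteins (46 large, 31 small) and 12 were relatives with their own symbols, such as Rpl3l, Rpl22l1 and Rps27l. Among the 12 relatives, 5 are annotated as processed pseudogenes though not named as such. A TPM (a level per transcript length, scaled to the same total in every library) of 1 or more in 3 or more libraries was required for testing, and 87 members met it. Rpl3l, the striated-muscle counterpart of Rpl3, did not and lay between 0 and 0.218 TPM. Rpl10l, known from the testis, was listed at 0 in all 9 libraries.

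The 3 groups had 3 libraries each. They were fibroblasts infected with an adenovirus for junctophilin-2 (Ad-JP2), with one for a short hairpin RNA against it (Ad-shJP2), or with one for GFP (Ad-GFP), each harvested after 72 h. All cells were wild type and came from adult male C57BL/6N hearts, so every group, Ad-GFP included, carried an adenovirus, and an uninfected group was not analysed here. The labels do not say whether the 3 libraries of a group came from separate cultures or animals, so the p-values measure the spread between these libraries, which may be technical.

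Each cytosolic ribosome pairs a small subunit, which reads the mRNA, with a large subunit, which joins the amino acids and carries the stalk of P proteins that recruits elongation factors. Ribosomal protein mRNAs are among the most abundant of a cell, and most begin with a stretch of C and T bases, the terminal oligopyrimidine tract, through which the mTOR pathway and LARP1 control their translation. Each gene has left many intronless processed copies in the mouse genome, some of them nearly identical to the mRNA.

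Jph2, which encodes junctophilin-2, had 737, 691 and 637 TPM in Ad-JP2, against 132, 128 and 128 TPM in Ad-GFP. It had 117, 123 and 119 TPM in Ad-shJP2, 0.924-fold the Ad-GFP mean, and those 2 groups did not overlap. Depth estimated from the steps of low values was 36.8 to 41.1 M reads in Ad-JP2, 21.2 to 33.0 M reads in Ad-shJP2 and 40.5 to 45.9 M reads in Ad-GFP. The summed level of 9 fibroblast markers was 11140 to 11900 TPM in Ad-JP2, 7490 to 7726 TPM in Ad-shJP2 and 11333 to 11439 TPM in Ad-GFP. That of 7 macrophage and leukocyte markers was 2197 to 2238, 2789 to 2837 and 2401 to 2426 TPM in the same groups. Cardiomyocyte markers summed to 20.4 to 33.3 TPM, endothelial markers to 10.4 to 12.5 TPM, pericyte and smooth muscle markers to 6.69 to 9.25 TPM, and 3 erythroid markers were at 0. Single genes carried the 2 largest sums. Without Vim, which other cells express too, the fibroblast sum was 4230.3 to 4375 TPM in Ad-JP2, 2522 to 2592 TPM in Ad-shJP2 and 4084 to 4140.5 TPM in Ad-GFP. Without Lyz2 the macrophage sum was 650.2 to 675 TPM, 777 to 796 TPM and 682 to 689 TPM in the same groups. Of the 7 macrophage and leukocyte markers 4 were called higher and 2 lower in Ad-shJP2 against Ad-GFP, and Mrc1 had 1.86, 2.02 and 2.03 TPM in Ad-shJP2, against 8.14, 8.04 and 8.30 TPM in Ad-GFP. Fibroblast and macrophage genes were thus both present in all 9 libraries. The part of these marker shifts in the results below was not tested, and in such bulk RNA fewer cells of a type and less RNA per cell cannot be told apart.

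The sequences of the members and of their copies set how far a row speaks for its gene. Transcripts of the other rows were compared with the coding transcripts of the members, using the GENCODE M21 transcripts (build GRCm38), and 1102 rows outside the name rule matched a member at 90% identity or more over at least 80% of their length. Of these copies, 1051 were annotated as processed pseudogenes and 504 averaged at least 1 TPM. A further 5 members (Rpl6l, Rpl32l, Rps3a2, Rps3a3 and Rps12l1) are themselves copies of another member and are annotated as processed pseudogenes. Counting these 5 as well, 27 copies that averaged at least 1 TPM were identical to the member over the aligned bases. The first 60 coding bases of Rps12, a small subunit protein, are shown with those of the copies that hold most of its signal. All 399 coding bases are the same in the 3 rows.
Rps12: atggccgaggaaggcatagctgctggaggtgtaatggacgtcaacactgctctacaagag
Rps12-ps3: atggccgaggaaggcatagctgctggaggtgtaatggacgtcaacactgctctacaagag
Rps12l1: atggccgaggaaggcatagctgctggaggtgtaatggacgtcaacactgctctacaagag

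Rplp1, a stalk protein of the large subunit, differs from its copy Gm10073 at 5 of 345 coding bases. The stretch with the most differences runs from coding base 199 to 258, counted from the A of the start codon, and the capitals mark the bases that differ.
Rplp1: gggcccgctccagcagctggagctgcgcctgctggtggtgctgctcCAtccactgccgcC
Gm10073: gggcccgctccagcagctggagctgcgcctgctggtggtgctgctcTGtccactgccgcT

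Reads from rows as alike as these can be assigned to either. How reads that fit several rows were assigned is not given in the sources used here. Rps12 itself held a mean of 1.3% of the TPM of its row and copies together, and Rplp1 held 82.1%. Over the 77 standard genes the own row held a median of 14.4% of that sum. It held under 10% for 31 genes, under 50% for 58 genes and 90% or more for 5 genes. A single copy exceeded the gene's own row for 56 genes. Rps16, a small subunit protein, averaged 198 TPM beside 3118 TPM for Rps16-ps2. Rpl12, a large subunit protein near the factor-binding site, averaged 27.5 TPM beside 2877 TPM for Gm10275. Rps29 averaged 39.3 TPM beside 4499 TPM for Gm14303. The comparisons below are therefore given for the own rows and for rows with their copies summed, an alternative chosen after the values were seen. Values of single genes are those of own rows unless copies are named.

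Rplp1 had the highest own row, at a mean of 6786 TPM, followed by Rpl41, the smallest ribosomal protein, at 5882 TPM, Rplp0, the base of the stalk, at 3182 TPM, and Rpsa, a small subunit protein also known as the laminin receptor, at 3034 TPM. Rpl13a and Rpl32 came next, at 2744 and 2228 TPM. The lowest tested members were Rpl39l at 6.89 TPM, Rps13 at 9.47 TPM, Rpl17 at 14.1 TPM and Rpl9 at 25.6 TPM. Own rows of the 77 standard genes ran from 9.47 to 6786 TPM with a median of 448 TPM, and the 90th percentile was 55.6 times the 10th. With copies summed they ran from 1058 to 8265 TPM with a median of 2392 TPM, and that ratio was 2.45. With copies, 74 of the 77 lay between 1000 and 5000 TPM, against 19 by own row. Rps13, for example, had 9.47 TPM alone and 2119 TPM with its copies. The own-row median was 249 TPM for the 46 large subunit genes and 807 TPM for the 31 small subunit genes. With copies those medians were 2347 and 2817 TPM. These are levels per length, but own rows also depend on how reads were assigned between a gene and its copies. The own-row gap between the subunits therefore cannot be told apart from read assignment.

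**Figure D1:**
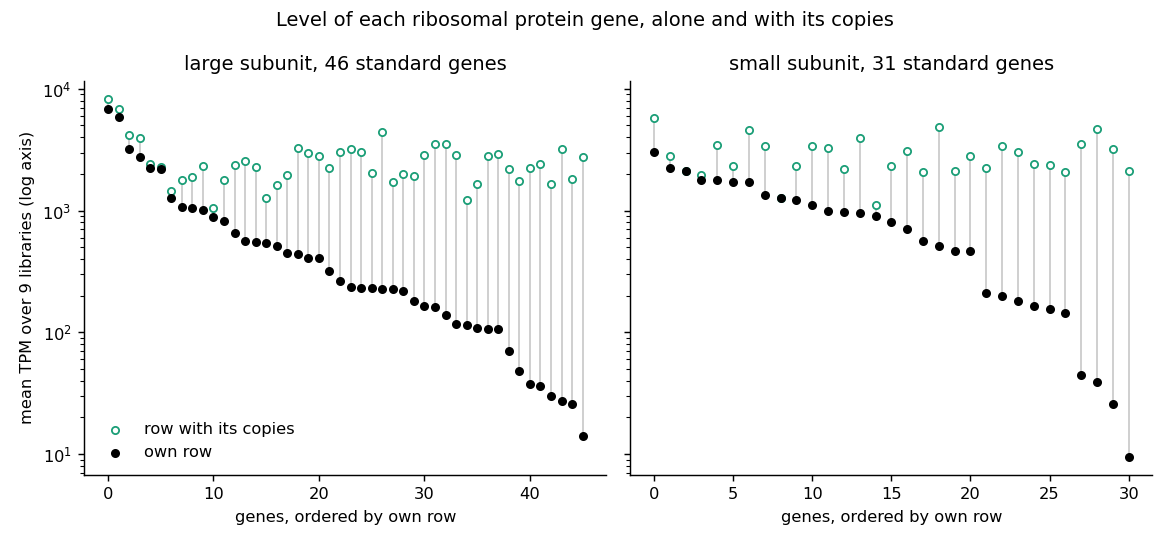
Mean TPM over the 9 libraries (log axis) of each standard ribosomal protein gene, ordered by its own row (black) and joined to the sum of that row and its copies (green circles), for 46 large and 31 small subunit genes. Own rows run from 9.47 to 6786 TPM, and rows with copies from 1058 to 8265 TPM.

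All members together held 6.34% ± 0.066 of TPM in Ad-JP2, 7.35% ± 0.023 in Ad-shJP2 and 6.67% ± 0.0074 in Ad-GFP (SD, n = 3 each). The Ad-JP2 libraries had 6.33%, 6.29% and 6.41%. The Ad-shJP2 libraries had 7.33%, 7.35% and 7.38%, and the Ad-GFP libraries 6.68%, 6.66% and 6.67%, so the 3 groups did not overlap. Copies outside the name rule held 13.8% ± 0.047, 15.4% ± 0.083 and 14.5% ± 0.035 in the same groups. Genes and copies together held 20.2% ± 0.11 in Ad-JP2, 22.8% ± 0.11 in Ad-shJP2 and 21.2% ± 0.032 in Ad-GFP, again without overlap. The group means of this sum were 0.950-fold in Ad-JP2 and 1.07-fold in Ad-shJP2, each over Ad-GFP. TPM is a share of a fixed total, so these values move with every other gene. The 2.35% ± 0.12 of TPM from mitochondrially encoded genes in Ad-JP2, against 1.92% ± 0.017 in Ad-GFP, and the 1.22% ± 0.056 in Ad-shJP2 are among them. Without those genes and Jph2 the members held 6.50%, 7.45% and 6.80% in Ad-JP2, Ad-shJP2 and Ad-GFP.

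**Figure D2:**
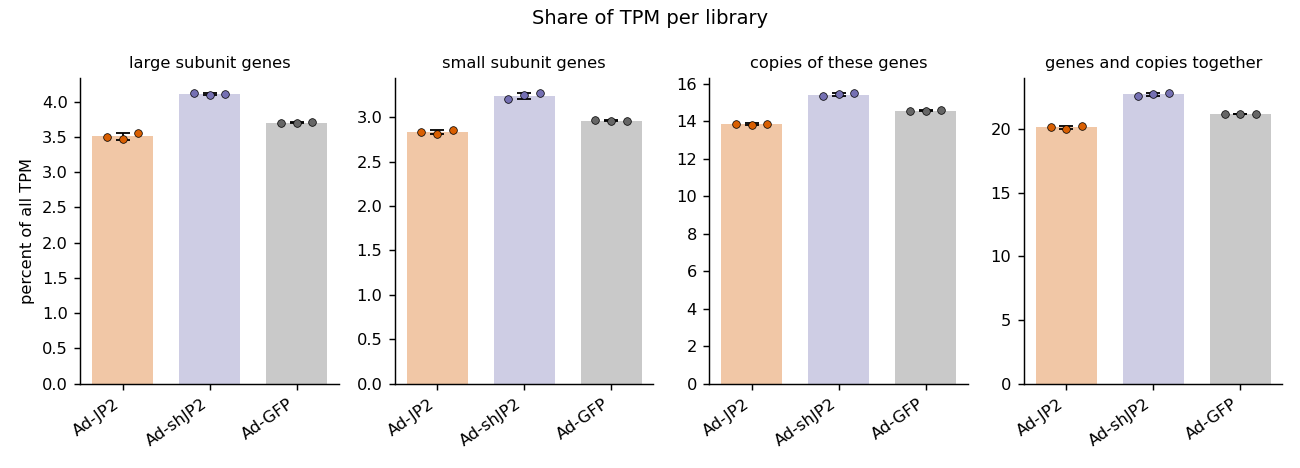
Percent of all TPM held by large subunit genes, small subunit genes, their copies, and genes and copies together, per library. Bars are group means, error bars the SD over 3 libraries and points the libraries. Ad-shJP2 is highest and Ad-JP2 lowest in each panel, with 20.2%, 22.8% and 21.2% for genes and copies in Ad-JP2, Ad-shJP2 and Ad-GFP.

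The first comparison asked what differs when junctophilin-2 is overexpressed, Ad-JP2 against Ad-GFP. Of 87 members, 8 fell and 0 rose (limma's moderated test, two-sided, on log2(TPM + 1), with Benjamini-Hochberg adjustment over all genes and an adjusted p under 0.05). Over all 14215 genes tested 1.64% were called lower and 13.4% higher. The groups did not overlap for 30 members, all lower in Ad-JP2, where 9.74% of all genes stood apart in that direction and 22.4% in the other. The members' median difference was -0.073, against 0.012 for all genes tested and -0.036 for genes averaging 100 TPM or more. Rpl12 had 24.3, 22.8 and 23.4 TPM in Ad-JP2, against 26.0, 27.8 and 27.1 TPM in Ad-GFP. The groups did not overlap, and the difference was -0.19 ± 0.041 (SE, adjusted p = 0.013), the largest of the 8. Rplp1 had 6360.1, 6039.7 and 5953.8 TPM in Ad-JP2, against 6763, 6643 and 6648 TPM in Ad-GFP, also without overlap. Its difference was -0.128 ± 0.030 (SE, adjusted p = 0.019). Others of the 8 were Rpl37a at -0.150, Rps18 at -0.135, Rps27l at -0.107, Rps4x at -0.082 and Rps15 at -0.073.

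With copies summed, 30 of 82 members fell and 0 rose in Ad-JP2 against Ad-GFP, where 1.83% of 13691 genes were called lower. Without overlap, 58 were below and 1 above Ad-GFP, at backgrounds of 9.51% and 23.2%. The median difference was -0.075, and 6 of the 8 own-row calls were called in the same direction. Rps18, with copies, was 0.11 lower on the log2 scale in Ad-JP2 (-0.111, adjusted p = 0.003). The own-row count turned on single libraries. It was 1 without Ad-JP2 replicate 2 or Ad-GFP replicate 2, 2 without Ad-GFP replicate 1 or replicate 3, and 13 without Ad-shJP2 replicate 2. It was 16 with median-of-ratios scaling, which moved the median of all genes by -0.018.

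The second comparison asked what differs with the hairpin virus, Ad-shJP2 against Ad-GFP. Of 87 members, 46 rose and 3 fell, where 21.8% of all genes tested were called higher and 37.7% lower. Without overlap, 50 members were above and 5 below Ad-GFP in Ad-shJP2, at backgrounds of 24.5% and 40.9%. The median difference was 0.145 for members, -0.115 for all genes and 0.034 for genes averaging 100 TPM or more. The 2 largest rises were of small subunit genes. Rps12 had 55.3, 57.0 and 52.8 TPM in Ad-shJP2, against 41.1, 39.7 and 40.4 TPM in Ad-GFP, a difference of 0.44 ± 0.037 (SE, adjusted p = 8.94e-06). Rps16 had 251, 209 and 264 TPM in Ad-shJP2, against 177, 188 and 178 TPM in Ad-GFP, a difference of 0.40 ± 0.089 (SE, adjusted p = 0.0037). Every Ad-shJP2 library was above every Ad-GFP library for both genes. Rps23, a protein of the decoding centre, rose by 0.37, and Rps6, the substrate of the S6 kinases, by 0.30.

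Rpl7l1, a nucleolar relative of Rpl7, had 99.5, 94.3 and 104 TPM in Ad-shJP2, against 72.9, 80.2 and 74.2 TPM in Ad-GFP. It stood apart without overlap and rose by 0.39 ± 0.047 (SE, adjusted p = 1.04e-04). The rest of the 10 largest rises were Rpl36a at 0.285, Rpl35a at 0.277, Rpl10a at 0.276, Rpsa at 0.265 and Rps20 at 0.264. The 3 that fell were Rps12l1 at -0.64, Rpl34 at -0.19 and Rpl4, a protein lining the exit tunnel, at -0.056. Rps12l1 had 242, 369 and 323 TPM in Ad-shJP2, against 534, 501 and 406 TPM in Ad-GFP. This row matches Rps12 base for base over its whole coding part, as printed above, and it fell where Rps12 rose. Rpl34 had 113, 103 and 110 TPM in Ad-shJP2, against 117, 127 and 127 TPM in Ad-GFP. Rps12l1 and Rpl34 were both lower in every Ad-shJP2 library than in any Ad-GFP library. The count of 3 was 1 without Ad-shJP2 replicate 1 or Ad-GFP replicate 1, 0 without Ad-GFP replicate 2, 6 without Ad-shJP2 replicate 2, and 0 with median-of-ratios scaling, which moved the median of all genes by 0.099 and put Rpl4 at 0.058.

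With copies summed, 53 of 82 members rose and 7 fell in Ad-shJP2 against Ad-GFP, where 22.2% and 39.2% of 13691 genes were called higher and lower. Without overlap, 57 were above and 10 below Ad-GFP, at backgrounds of 24.6% and 42.2%. The median was 0.105, and 42 of the 49 own-row calls were called in the same direction. Rps12 with its copies had 3976, 3722 and 3989 TPM in Ad-shJP2, against 3339.7, 3273 and 3323 TPM in Ad-GFP, a difference of 0.23 where the own row gave 0.44. Rps16 with copies was at 0.21, and Rpl36a at 0.019 with an adjusted p of 0.44. Rpl34 with copies had 1022, 1050.3 and 1058 TPM in Ad-shJP2, against 1301, 1328 and 1370.5 TPM in Ad-GFP, a fall of 0.35 on the log2 scale (-0.353, adjusted p = 2.82e-06). Rpl23 with copies had 3092, 3262 and 3083 TPM in Ad-shJP2, against 3828, 3784 and 3863 TPM in Ad-GFP, a difference of -0.28 (adjusted p = 7.84e-06). The other falls were Rpl22l1, Rpl39, Rpl17, Rps7 and Rpl4, between -0.18 and -0.064. Large subunit genes made up 6 of the 7 that fell, where 53 of the 89 members are of that subunit.

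The third comparison set the overexpressing cells against the hairpin cells, Ad-JP2 against Ad-shJP2. Of 87 members, 63 fell and 2 rose, where 24.1% of all genes tested were called lower and 40.3% higher. Without overlap, 52 were below and 2 above, at backgrounds of 25.4% and 41.7%. The median difference was -0.230 for members, 0.103 for all genes and -0.087 for genes averaging 100 TPM or more. Rpl27 had 47.8, 35.7 and 34.7 TPM in Ad-JP2, against 53.2, 59.9 and 62.9 TPM in Ad-shJP2, without overlap, and its difference was -0.58 ± 0.14 (SE, adjusted p = 0.0046). Rps12 followed at -0.54, Rpl7l1 at -0.52, Rps16 at -0.47, Rpl12 at -0.43, Rps6 at -0.42, Rps27 at -0.41, Rpl36a at -0.41, Rpl28 at -0.38 and Rps10 at -0.33. Rpl23 rose, with 140, 145 and 163 TPM in Ad-JP2, against 127, 119 and 130 TPM in Ad-shJP2, a difference of 0.25 ± 0.063 (SE, adjusted p = 0.0073). Rpl4 was the other, with 1301, 1269.7 and 1305 TPM in Ad-JP2, against 1238, 1231 and 1249 TPM in Ad-shJP2, a difference of 0.060 ± 0.018 (SE, adjusted p = 0.014). Neither group of libraries overlapped the other for these 2 genes. The count of 2 was 4 without Ad-JP2 replicate 3 and 0 with median-of-ratios scaling, which moved the median of all genes by -0.116 and put Rpl4 at -0.074. With copies summed, 64 of 82 members fell and 5 rose, at backgrounds of 24.1% and 42% of 13691 genes. Without overlap, 65 were below and 6 above, at backgrounds of 25.5% and 43.3%. The 5 were Rpl34 at 0.30, Rpl22l1 at 0.29, Rpl23 at 0.20, Rpl5 at 0.076 and Rpl4 at 0.063, all of the large subunit. That subunit holds 53 of the 89 members.

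**Figure D3:**
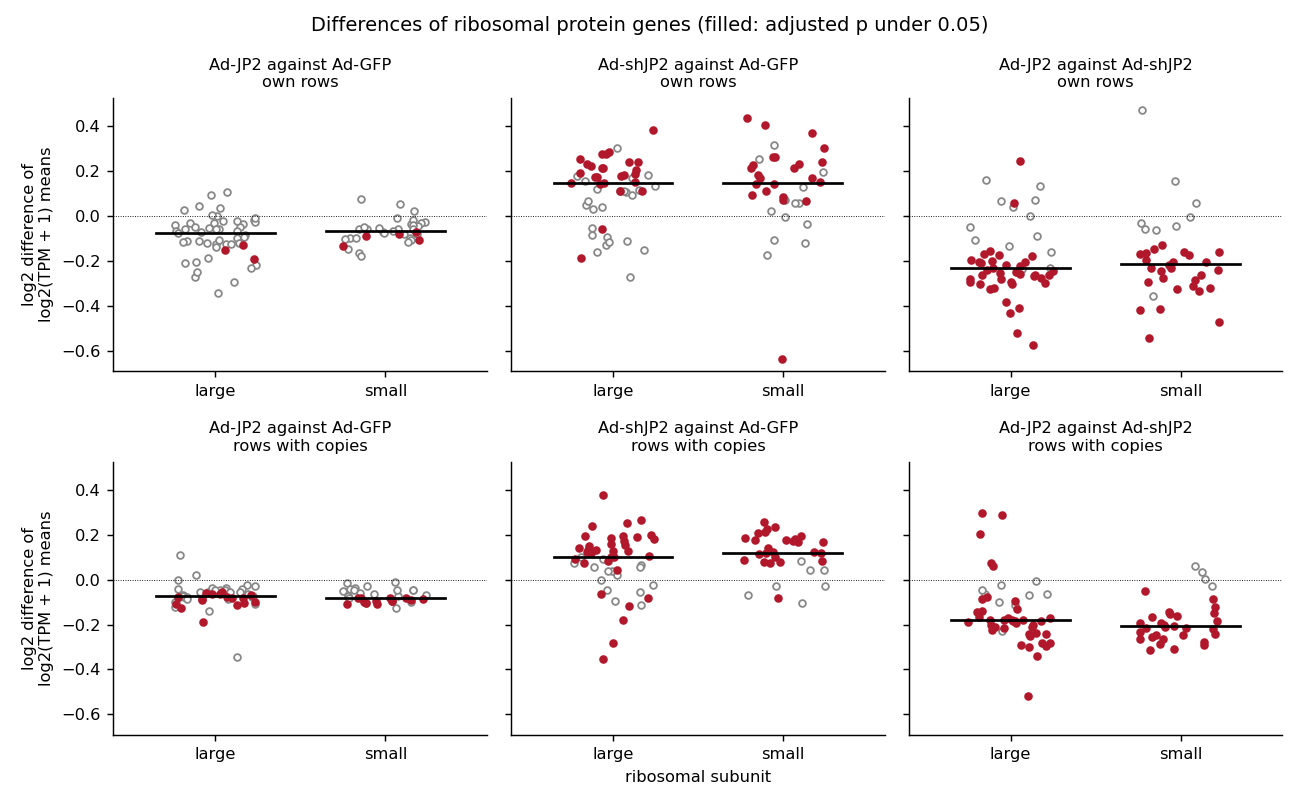
Difference of log2(TPM + 1) group means for each tested member, by subunit, in the 3 comparisons, for own rows (top, 87 genes) and rows with copies (bottom, 82 genes). Filled red points had an adjusted p under 0.05 and black lines are medians. Own-row counts lower and higher are 8 and 0, 3 and 46, and 63 and 2 from left to right, and the medians of the subunits lie close together in every panel.

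The 3 comparisons share libraries, so their values stand side by side and are not separate evidence. The group means stood in the order Ad-shJP2, Ad-GFP, Ad-JP2 from high to low for 64 of 87 own rows, where 22.3% of all genes tested had that order, and for 66 of 82 rows with copies, where 21.7% had it. In 20 own rows all 3 groups were also apart without overlap in that order, at a background of 3.51%, and so were 43 rows with copies, at a background of 3.59%.

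Large and small subunit genes had close median differences before any correction. Large subunit members had a median difference of -0.077 in Ad-JP2 against Ad-GFP (51 tested, 3 lower, 0 higher), and small subunit members -0.067 (36 tested, 5 lower, 0 higher). In Ad-shJP2 against Ad-GFP the medians were 0.145 for large (24 higher, 2 lower) and 0.148 for small (22 higher, 1 lower). In Ad-JP2 against Ad-shJP2 they were -0.231 for large (36 lower, 2 higher) and -0.213 for small (27 lower, 0 higher). Large minus small was -0.0099 in the first comparison, -0.0025 in the second and -0.018 in the third, where the same quantity varied by an SD of 0.0103, 0.0114 and 0.0093 between libraries. With copies summed it was 0.0057, -0.015 and 0.025, so its sign was not stable. After the GC content and length correction it was -0.029, -0.066 and 0.049, all larger in size than those SDs. So were -0.018 before the correction, and -0.015 and 0.025 with copies summed. No test was run on these medians, since members share their libraries.

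The ratio of summed large to summed small subunit TPM gave a more even picture within groups. For own rows it was 1.24 ± 0.0082 in Ad-JP2, 1.27 ± 0.016 in Ad-shJP2 and 1.25 ± 0.0059 in Ad-GFP (SD, n = 3 each), and the Ad-shJP2 libraries, at 1.287, 1.262 and 1.256, reached down to the highest Ad-GFP library at 1.256. With copies it was 1.361 ± 0.0034 in Ad-JP2, 1.332 ± 0.0047 in Ad-shJP2 and 1.362 ± 0.00044 in Ad-GFP. The 3 Ad-shJP2 libraries, at 1.331, 1.337 and 1.328, then lay below all 6 others, which ran from 1.357 to 1.363. The ratio was thus highest in Ad-shJP2 for own rows and lowest there with copies. The copies form moved by -2.2% between the Ad-shJP2 and Ad-GFP means.

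Gene length moved with these results across genes, while among the members the relation was weak and, in both comparisons with the hairpin virus, of the other sign. Across the 87 members, Spearman's rho of the difference with gene length was 0.171, 0.20 and -0.123 in the 3 comparisons, and with GC content it was -0.265, 0.026 and -0.111, a description over genes that share their libraries. Members had a median gene length of 661 bases, against 1985 for all genes tested. Among genes outside the member and copy lists that averaged 100 TPM or more, those up to 600 bases had median differences of -0.076 in Ad-JP2 against Ad-GFP, 0.080 in Ad-shJP2 against Ad-GFP and -0.133 in Ad-JP2 against Ad-shJP2 (181 genes). Those over 4000 bases had 0.053, -0.449 and 0.502 in the same comparisons (70 genes). At this level the short genes thus had the members' sign and the long genes the other. Over all such genes tested, at any level, the median up to 600 bases was -0.052, -0.027 and -0.050 (1099 genes), which is not the members' sign in the second comparison, and that over 4000 bases was 0.148, -0.398 and 0.656 (2141 genes).

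After a smooth trend on GC content and gene length was taken out of each library, the members' medians changed sign. They were 0.097 in Ad-JP2 against Ad-GFP, -0.082 in Ad-shJP2 against Ad-GFP and 0.20 in Ad-JP2 against Ad-shJP2. Calls were then 19 higher and 4 lower in the first comparison, 13 higher and 29 lower in the second, and 47 higher and 15 lower in the third. Under the same fit, of 14025 genes 15.9% were called higher and 3.38% lower in the first, 18.2% and 40.8% in the second, and 48.6% and 17.8% in the third. This correction also moved the median of all genes, by 0.060, -0.035 and 0.123. Relative to that median the members stood at 0.025, 0.069 and -0.026 with the correction, against -0.084, 0.260 and -0.333 without it. With copies summed and the same correction they stood at 0.043, 0.033 and 0.013, against -0.091, 0.226 and -0.306 with copies summed alone. The shift relative to other genes was therefore under 0.07 in both forms after this correction. The direction of the shift changed in the first comparison in both forms and in the third with copies summed. The trend was fitted to all genes with a GC content, members included, and in the own-row form also their copies. It can thus have taken out part of the members' own shift, and how much was not tested. The cause of the length trend was not tested.

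**Figure D4:**
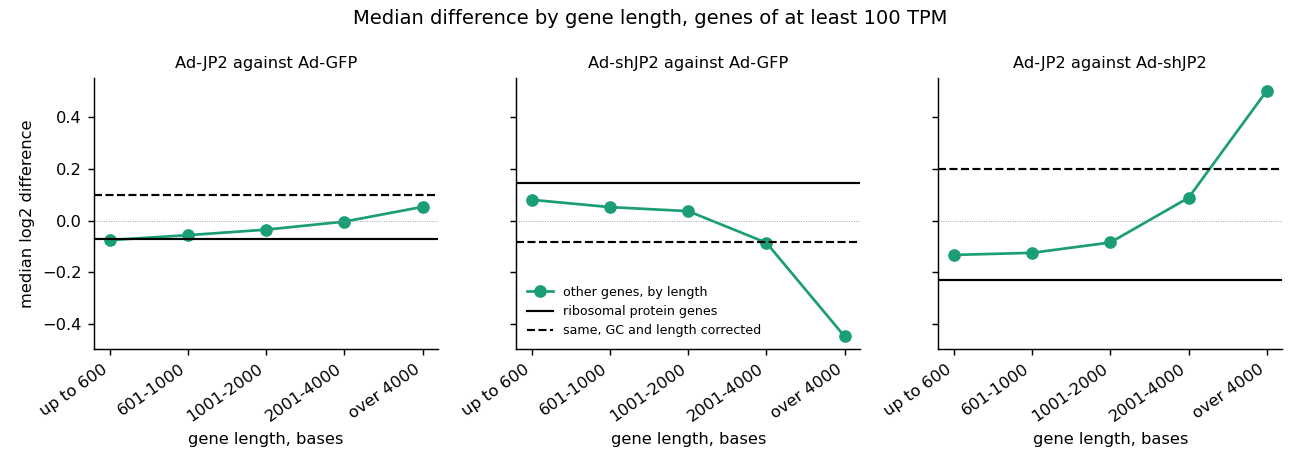
Median difference of log2(TPM + 1) means by gene length class for genes of at least 100 TPM that are neither members nor copies (green), with the members' median before (solid line) and after (dashed line) correction for GC content and length. The green line runs from 0.080 in the shortest to -0.449 in the longest class in Ad-shJP2 against Ad-GFP, and the members' line moves from 0.145 to -0.082.

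Some members kept both direction and call under this correction. In Ad-shJP2 against Ad-GFP there were 14 of the 49, with Rps12 at 0.46, Rps20 at 0.57, Rps23 at 0.37, Rpl35a at 0.37, Rps24 at 0.32, Rpl7l1 at 0.30, Rps27l at 0.28, Rps27a at 0.25, Rpl27a at 0.18, Rpl36a at 0.145 and Rps3 at 0.115, and with Rps12l1 at -0.84, Rpl34 at -0.49 and Rpl4 at -0.138. Another 14 were called in the opposite direction, among them Rplp1 at -0.133 and Rplp0 at -0.124. In Ad-JP2 against Ad-shJP2, 16 of 65 kept direction and call, with Rps12 at -0.59, Rpl7l1 at -0.35, Rpl23 at 0.31 and Rpl4 at 0.23 among them, and 31 were called in the opposite direction. In Ad-JP2 against Ad-GFP, Rps27l was the 1 of 8 that kept both, at -0.184, and 3 were called in the opposite direction. The correction took GC content from each gene's longest GENCODE M21 transcript. That transcript is annotated as a retained intron for Rps12, Rps24, Rpl35a, Rpl27a, Rpl36a and Rps3. It used the deposited gene length, which is 2580 bases for Rps20, against a median of 661 for members. How far these choices set the corrected values was not tested.

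**Figure D5:**
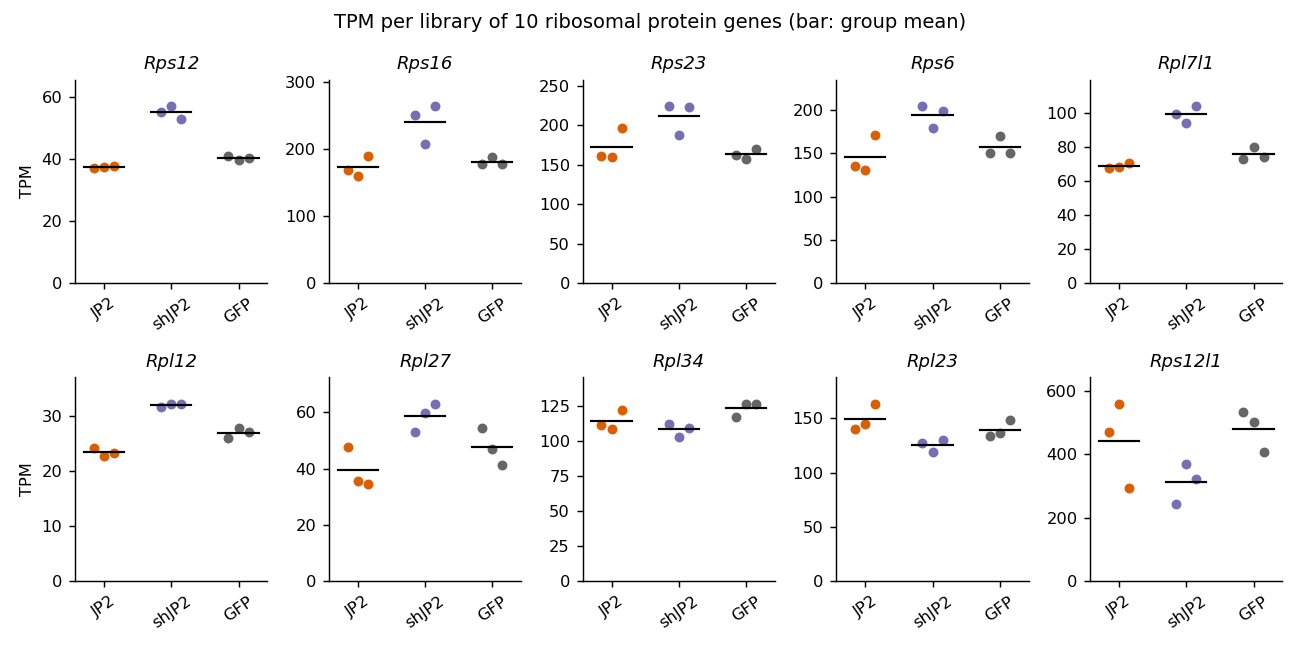
TPM in each library of 10 members, in Ad-JP2 (orange), Ad-shJP2 (purple) and Ad-GFP (grey), with group means as black bars and axes from 0. Rps12l1 is annotated as a processed pseudogene. Rps12 and Rpl7l1 are highest in all 3 Ad-shJP2 libraries without overlap, while Rpl34, Rpl23 and Rps12l1 have their lowest group mean in Ad-shJP2.

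The stalk is the flexible arm of the large subunit formed by Rplp0, Rplp1 and Rplp2. Rplp0 had 2939, 3018 and 2995 TPM in Ad-JP2, 3442, 3487 and 3434 TPM in Ad-shJP2, and 3054, 3107 and 3160.4 TPM in Ad-GFP. The Ad-shJP2 libraries were the highest, and Ad-shJP2 against Ad-GFP differed by 0.153 ± 0.018 (SE, adjusted p = 9.09e-05). Rplp1 had 7468, 7842 and 7359 TPM in Ad-shJP2 and rose by 0.176 over Ad-GFP. Rplp2 had 563, 512 and 414 TPM in Ad-JP2, 561, 676 and 593 TPM in Ad-shJP2, and 550.1, 516 and 543 TPM in Ad-GFP. It fell by 0.30 in Ad-JP2 against Ad-shJP2 and its difference did not pass the test against Ad-GFP in either comparison. Its sum with copies had 2173, 2121 and 2058 TPM in Ad-JP2, 2434, 2565 and 2484 TPM in Ad-shJP2, and 2255, 2212 and 2260.1 TPM in Ad-GFP. With copies it rose by 0.153 in Ad-shJP2 against Ad-GFP (adjusted p = 5.89e-04). Its Ad-JP2 replicate 3 was the lowest of the 9 libraries. Rpsa rose by 0.265 in Ad-shJP2 against Ad-GFP, and it fell by 0.32 in Ad-JP2 against Ad-shJP2.

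Rpl5 and Rpl11 form, with a ribosomal RNA, the particle that can bind the p53 regulator Mdm2 when ribosome assembly fails. Rpl5 had 28.2, 28.7 and 36.1 TPM in Ad-JP2, 34.3, 26.5 and 29.5 TPM in Ad-shJP2, and 30.3, 25.8 and 29.5 TPM in Ad-GFP, so its groups overlapped. Rpl11 had 416, 386 and 349 TPM in Ad-JP2, 369, 523 and 320.1 TPM in Ad-shJP2, and 458, 386 and 488 TPM in Ad-GFP, which overlapped too. Neither gene was called in any of the 3 comparisons by its own row. With copies Rpl5 averaged 1668 TPM and Rpl11 2998 TPM, and the 1 call was Rpl5 at 0.076 in Ad-JP2 against Ad-shJP2 (adjusted p = 0.027). With copies Rps6 rose by 0.166 and Rps19 by 0.183 in Ad-shJP2 against Ad-GFP. Rps6 had 135, 131 and 171 TPM in Ad-JP2, 204, 179 and 199 TPM in Ad-shJP2, and 150.0, 170.4 and 151 TPM in Ad-GFP. Rps19, a small subunit protein mutated in Diamond-Blackfan anaemia, had 1173, 1231 and 1269.6 TPM in Ad-JP2, 1540.2, 1459 and 1479 TPM in Ad-shJP2, and 1247, 1263 and 1309.5 TPM in Ad-GFP. Its Ad-shJP2 libraries were all above the rest, and it rose by 0.23 over Ad-GFP (adjusted p = 3.54e-04).

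In the paralog pairs the standard gene was the more abundant partner, for Rps27 only with copies summed. Rpl3 had 529, 476 and 415 TPM in Ad-JP2, 506, 589 and 464 TPM in Ad-shJP2, and 558, 529.9 and 557 TPM in Ad-GFP, while Rpl3l stayed at or under 0.218 TPM. Rpl7 averaged 1052 TPM and Rpl7l1 81.2 TPM. Rpl22 averaged 879.6 TPM and Rpl22l1 81.3 TPM, and Rpl22l1 was not called by its own row. Rpl39 averaged 538 TPM and Rpl39l 6.89 TPM. Rps4x averaged 977 TPM, and Rps4l 97.5 TPM with no call. Rps27l, a p53-inducible relative of Rps27, had 602, 599 and 640.1 TPM in Ad-JP2, 749, 744 and 737 TPM in Ad-shJP2, and 658, 668 and 657 TPM in Ad-GFP. The 3 groups of Rps27l did not overlap, and 94.2% of its sum with copies came from its own row. Its differences were -0.107 in Ad-JP2 against Ad-GFP, 0.170 in Ad-shJP2 against Ad-GFP and -0.277 in Ad-JP2 against Ad-shJP2, all called. Rps27 averaged 25.7 TPM by its own row and 3177 TPM with copies.

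Libraries of one group also differed along a shared axis. The first component of the members' within-group deviations held 65.1% of their variance. It set Ad-JP2 replicate 3, at 0.59, against Ad-shJP2 replicate 2, at -0.55, and the Ad-GFP libraries lay between -0.101 and 0.072. Rpl32l, Rps12l1, Rpl11, Rplp2 and Rpl3 had the most negative loadings, from -0.80 to -0.32. The median within-group SD on the log2 scale was 0.071 for members' own rows and 0.034 for rows with copies, against 0.102 and 0.10 for other genes. The other genes were not summed with copies, so the 2 forms can be set against each other for members only. They were also not matched to the members in level, and the part of level in this gap was not tested.

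The annotated start of transcription is where a terminal oligopyrimidine tract would lie. RefSeq promoter windows (build GRCm38.p6, 250 bases before to 50 bases after the start) were found for 64 of the 89 members. Windows of 30 bases, 15 on each side of the start, are shown for members named above, with a run of 8 or more C or T in capitals where one lies within 10 bases of the start on the gene's strand. Rps6 spans chr4:86857353-86857382 on the minus strand, Rps10 chr17:27635230-27635259 on the minus strand and Rps18 chr17:33955651-33955680 on the minus strand, and these 3 hold a run. Rps16 spans chr7:28350674-28350703 on the plus strand, Rpl27 chr11:101442230-101442259 on the plus strand and Rplp0 chr5:115559452-115559481 on the plus strand, and these have no run of that length.
Rps6: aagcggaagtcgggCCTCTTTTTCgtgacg
Rps10: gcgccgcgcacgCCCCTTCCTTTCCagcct
Rps18: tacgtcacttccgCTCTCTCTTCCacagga
Rps16: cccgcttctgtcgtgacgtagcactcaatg
Rpl27: acgctctgttcctgtctgctgctcgtgctg
Rplp0: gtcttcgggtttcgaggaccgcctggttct

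A run of 8 or more C or T near the start was found in 30 of 64 members (46.9%), against 16.1% of 27025 gene symbols with a window. It was present in 19 of 40 large and 11 of 24 small subunit members. The letters CCGGAAG, on either strand of the 300-base window, were found in 40.6% of members and 9.93% of all symbols. ATGGCGG was found in 17.2% and 4.69%, GGGCGG in 60.9% and 38.2%, and TATAAA in 12.5% and 15.7%. A match is only a description of the letters, and the searched motifs may overlap each other. Members with a pyrimidine run had a median difference of -0.097 in Ad-JP2 against Ad-GFP, and those without had -0.078 (30 and 32 tested). In Ad-shJP2 against Ad-GFP the medians were 0.139 with and 0.155 without, and in Ad-JP2 against Ad-shJP2 they were -0.219 with and -0.261 without. With copies summed the 2 sets were within 0.014 of each other in the second comparison, at 0.102 and 0.116.

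Other genes of translation were read from lists that hold no member. Among 4 ribosomal proteins outside the name rule, Fau, which encodes a small subunit protein fused to a ubiquitin-like domain, had 381, 371 and 403 TPM in Ad-JP2, 535, 525 and 514 TPM in Ad-shJP2, and 436, 400.2 and 415 TPM in Ad-GFP. It rose by 0.33 in Ad-shJP2 against Ad-GFP and fell by 0.45 in Ad-JP2 against Ad-shJP2. Rack1, a scaffold on the small subunit, was called in the same directions. In Ad-JP2 against Ad-GFP the adjusted p from limma was 0.088 for Fau and 0.23 for Rack1. After the GC content and length correction Fau was at 0.012 in Ad-shJP2 against Ad-GFP and 0.10 in Ad-JP2 against Ad-shJP2, neither of them called. Of the 4 genes, 0 were then called in Ad-shJP2 against Ad-GFP. In Ad-JP2 against Ad-shJP2, 2 were then called higher and 0 lower, where 48.6% of all genes were called higher under that fit.

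Of 94 ribosome biogenesis genes, 23 rose and 0 fell in Ad-JP2 against Ad-GFP, with a median of 0.081, where 13.4% of all genes were called higher and 1.64% lower. Ncl, the nucleolar protein nucleolin, had 111, 114 and 121 TPM in Ad-JP2, 19.9, 19.1 and 19.3 TPM in Ad-shJP2, and 33.7, 36.7 and 36.0 TPM in Ad-GFP. It was the largest rise, at 1.67 ± 0.046 (SE, adjusted p = 2.49e-07), followed by Nop58, a box C/D ribonucleoprotein, at 1.57 and Mphosph10 at 1.45. In Ad-shJP2 against Ad-GFP, 44 rose and 34 fell with a median of 0.093, and the changes included Gtpbp4 at -1.48, Rrp1b at 1.29 and Nop14 at -1.19. In Ad-JP2 against Ad-shJP2, 39 rose and 44 fell with a median of -0.0996, led by Nop58 at 2.57 and Ncl at 2.51. After the GC content and length correction the counts higher and lower were 25 and 2, 44 and 27, and 36 and 36. Under that fit all genes were called higher and lower at 15.9% and 3.38%, at 18.2% and 40.8%, and at 48.6% and 17.8%. In the first of these comparisons the ribosomal protein genes, like all genes, were then called higher more often than lower.

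Of 24 other mRNAs with a terminal oligopyrimidine tract, 6 rose and 0 fell in Ad-JP2 against Ad-GFP, 11 rose and 8 fell in Ad-shJP2 against Ad-GFP, and 8 rose and 12 fell in Ad-JP2 against Ad-shJP2. Their medians were -0.042, 0.069 and -0.130. All genes were called higher and lower at 13.4% and 1.64% in the first comparison, 21.8% and 37.7% in the second and 40.3% and 24.1% in the third. After the GC content and length correction the balance of the 24 turned, with 6 higher and 9 lower in the second and 12 higher and 9 lower in the third. In the first there were 4 higher and 2 lower. Under that fit all genes were called higher and lower at 18.2% and 40.8% in the second comparison, 48.6% and 17.8% in the third, and 15.9% and 3.38% in the first. Pabpc1, the poly(A)-binding protein, had 696, 764 and 713 TPM in Ad-JP2, 222, 209.8 and 218 TPM in Ad-shJP2, and 476, 472 and 493 TPM in Ad-GFP. Its differences were 0.59, -1.14 and 1.73 in the 3 comparisons. Snhg1, a snoRNA host transcript, was at 1.66 in Ad-shJP2 against Ad-GFP and -1.41 in Ad-JP2 against Ad-shJP2. Of 19 tested genes of mTOR and LARP1 control, 2 rose in Ad-JP2 against Ad-GFP, Larp1 at 0.75 and Myc at 0.148. Larp1 had 36.8, 36.8 and 34.2 TPM in Ad-JP2, 15.9, 14.8 and 15.4 TPM in Ad-shJP2, and 20.88, 21.04 and 21.06 TPM in Ad-GFP, so the 3 groups were apart. Mtor averaged 16.3, 16.9 and 15.9 TPM in Ad-JP2, Ad-shJP2 and Ad-GFP and was not called in any comparison. In Ad-shJP2 against Ad-GFP, 5 of the 19 rose and 6 fell, with Rps6kb1, an S6 kinase, at -1.08. The medians of these 19 were 0.033, 0.046 and -0.034. After the correction their counts higher and lower were 3 and 1, 5 and 6, and 6 and 6.

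Of 8 genes listed with the elongation factors, 1 fell in Ad-JP2 against Ad-GFP, Eef1b2 at -0.13. In Ad-shJP2 against Ad-GFP, 5 rose and 1 fell, with Eif5a at 0.40 and Eef1e1 at 0.32 among the rises, and Eef2k, the kinase that inhibits elongation factor 2, at -0.71. In Ad-JP2 against Ad-shJP2, 1 rose and 5 fell, and the medians were -0.037, 0.144 and -0.246. After the correction 4 were higher and 2 lower in that comparison, and 4 higher and 2 lower in Ad-shJP2 against Ad-GFP. Under that fit all genes were called higher and lower at 48.6% and 17.8%, and at 18.2% and 40.8%, in the same order. Of 14 tested genes of RNA polymerase I, which transcribes the ribosomal RNA precursor, 2 rose and 0 fell in Ad-JP2 against Ad-GFP, 8 rose and 3 fell in Ad-shJP2 against Ad-GFP, and 4 rose and 7 fell in Ad-JP2 against Ad-shJP2, with medians of 0.064, 0.232 and -0.211. Taf1d was at 1.02, -0.90 and 1.91 in the 3 comparisons. Before correction all genes were called higher and lower at 13.4% and 1.64%, 21.8% and 37.7%, and 40.3% and 24.1% in these comparisons. After the correction the polymerase I counts higher and lower were 3 and 1, 5 and 3, and 5 and 4. In the first comparison 15.9% of all genes were then called higher and 3.38% lower. Without correction, each of the biogenesis, oligopyrimidine, mTOR, elongation and polymerase I lists held calls of both directions in both comparisons with the hairpin virus. In the elongation list the 1 call against the other 5 was Eef2k in both, which is a kinase and not an elongation factor. Before the GC content and length correction, the 3 calls among the 4 further ribosomal proteins went 1 way in each of those comparisons.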

How the data were processed

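Libraries were stranded polyA RNA (TruSeq Stranded mRNA, per the labels' protocols). The build GRCm39 and the tools Salmon, DRAGEN and DESeq2 are named in the submitters' processing notes, with no role or version. The values used were the deposited TPM of the authors, 1 column for each library, with the deposited gene length. The members and gene lists were chosen with earlier results of these data known. The table had 56953 rows, 29601 of them at 0 in all libraries.

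From there, log2(TPM + 1) of 14215 genes was fitted with limma 3.58.1 (R 4.3.3, mean-variance trend), with 3 group means over 9 libraries, and p-values were adjusted over all genes. This scale understates differences of low genes. Differences are the group named first minus the other. An exact permutation test of 3 against 3 libraries cannot go below p = 0.1. Copies were found with blastn 2.17.0 (word size 16, plus strand) and 1 by name. Depth came from the steps of TPM times effective length and is approximate. The effective lengths deposited fit Ad-GFP replicate 3, where 96.6% of low rows lay within 0.1 of a whole read, against 45.5% to 60.0% in the other libraries. The fit was tested on simulated data. Same-numbered libraries deviated from their group means with correlations of -0.113 to 0.110, so the numbers were not used as pairs. Named members were, in each comparison, the 10 largest called rises and falls, then the 6 highest and 4 lowest tested members, the stalk genes and Rpsa, 7 paralog pairs, and Rps6, Rpl5, Rpl11 and Rps19. For other lists they were the 3 largest called changes, with Jph2, Larp1 and Mtor. Rps13, Rps29, Rpl22l1 and the members named with copies or after the GC content and length correction were also chosen after their values were seen. Some genes that enter the counts are not reported here by name.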

Additional observations from a re-analysis of the deposited data

How the results depend on the processing

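Values below run in the order Ad-JP2 against Ad-GFP, Ad-shJP2 against Ad-GFP, Ad-JP2 against Ad-shJP2. Directions of the median held under median-of-ratios scaling, quantile normalization, pseudocount 0.1, no filter on low values, TPM of at least 5, removal of mitochondrial genes and Jph2, only the 2 groups compared, GC content correction alone, added -ps rows and copies summed. They turned with length in the correction. The medians were 0.097, -0.082 and 0.20 with GC content and length correction, 0.053, -0.0024 and 0.045 with length alone, and 0.12, -0.12 and 0.25 with copies summed and both corrections. With GC content alone they were -0.0055, 0.058 and -0.035. With median-of-ratios scaling the second and the third were 0.26 and -0.36, with quantile normalization 0.124 and -0.195, with named -ps rows added 0.118 and -0.197, and with copies summed 0.105 and -0.186.

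Calls higher were 19, 13 and 47 with GC content and length correction, 1, 26 and 11 with GC content alone, 2, 5 and 20 with length alone, and 50, 18 and 62 with copies summed and both. Calls lower were 4, 29 and 15 with both corrections, and 10, 9 and 31 with GC content alone. They were 0, 13 and 5 with length alone, and 9, 49 and 19 with copies summed and both. Of the 8 lower in the first comparison, 1 kept direction and call with GC content alone. With copies summed and both corrections 1 of the 8 did so, and 5 were called in the opposite direction. With quantile normalization 8 were also called in the first comparison, 2 of them among the 8. The 8 lower in the first comparison became 16 with median-of-ratios scaling, 2 without a filter on low values, 13 with only the 2 groups compared, 19 with -ps rows added and 30 with copies summed. The 3 lower in the second became 0 with median-of-ratios scaling, 1 without the filter, 6 with -ps rows and 7 with copies. The 2 higher in the third became 0, 4 and 5 with median-of-ratios scaling, -ps rows and copies. Leaving out 1 library at a time gave 1 to 13 lower in the first, 0 to 6 lower in the second and 2 to 4 higher in the third, and medians of -0.232 to -0.204 in the third. In each such fit the remaining 2 libraries of the shortened group were assumed to vary like the other groups. With the replicate block there were 8 lower in the first, 6 of them among the 8 called without it, and 45 higher and 4 lower in the second, and 2 higher and 63 lower in the third comparison, and the replicate numbers share nothing else in the labels.

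Large minus small was 0.0057, -0.015 and 0.025 with copies summed, -0.029, -0.066 and 0.049 with both corrections, and 0.0060, -0.040 and 0.015 with copies and both. It was -0.071 and 0.058 in the second and the third with GC content alone, -0.025 in the first with length alone, and in the third -0.042 with quantile normalization, -0.029 with pseudocount 0.1 and 0.018 with -ps rows. Leaving out 1 library gave -0.024 to 0.0063, -0.019 to 0.0106 and -0.023 to -0.0051. The cause of these changes was not tested.

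The members' share in Ad-JP2, Ad-shJP2 and Ad-GFP was 6.12%, 7.79% and 6.53% with median-of-ratios scaling, 6.50%, 7.45% and 6.80% without mitochondrial genes and Jph2, 12.8%, 14.6% and 13.4% with -ps rows, and 20.2%, 22.8% and 21.2% with copies.

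Of the named members, those whose sign turned with GC content and length correction were, in the first comparison, Rplp1 at 0.108, Rpl37a at 0.079, Rps18 at 0.077, Rps15 at 0.154 and Rps4x at 0.053. In the second they were Rpl13a at -0.142, Rpl32 at -0.049, Rpl41 at -0.097, Rplp0 at -0.124, Rplp1 at -0.133 and Rps6 at -0.023. In the third they were Rpl13a at 0.31, Rpl22 at 0.167, Rpl28 at 0.107, Rpl32 at 0.21, Rpl41 at 0.26, Rplp0 at 0.26, Rplp1 at 0.24, Rplp2 at 0.23, Rps10 at 0.21, Rps19 at 0.064, Rps27 at 0.120, Rps4x at 0.024, Rps6 at 0.118 and Rpsa at 0.083. With median-of-ratios scaling Rpl4 was at 0.058 in the second and -0.074 in the third, and with -ps rows added Rpl35a was at -0.040 in the second. Members near 10 TPM, such as Rps13 and Rpl39l, had within-group SDs of 0.33 and 0.138 on the log2 scale. Rps13 also had a loading of 0.76 on the first component of the within-group deviations. The part of depth in these SDs was not tested.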
